A study of Mus musculus with 24 samples.

Results

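Cyp3a44 and Cyp3a41a are 2 cytochrome P450 genes of the mouse Cyp3a family. They were taken by their symbols from a table of 2372 genes measured in whole liver, and both were among the 2299 genes tested, which had at least 1 FPKM (fragments per kilobase of transcript, scaled to each library's total of mapped fragments) in at least 3 libraries. The table does not hold every gene: Cyp3a11 is absent from it, and of 16 listed hepatocyte markers 8 are in it. How its genes were chosen was not examined here, so ranks and shares below hold within this table. The livers came from 12 female and 12 male mice. All of them had eaten the Lieber-DeCarli alcohol diet, a liquid diet with ethanol, for 3 weeks. Each mouse had 2 injections of adeno-associated virus (AAV) that carries a short hairpin RNA against a chosen transcript. Injection 1 was AAV-shControl or a pair of vectors, AAV-shKdm5b and AAV-shKdm5c, called the Kdm5 vectors here. Injection 2 was AAV-shControl or AAV-shAhR, called the AhR vector here. Crossing both injections with sex gave 8 groups of 3 mice: control vectors alone, Kdm5 vectors, AhR vector, and both, in each sex. Every group, controls included, carried AAV and alcohol, and no group without them is in the data. Details not given in the sources used here include strain, age, vector dose and vector promoter. The labels do not say whether mice shared a cage or a day, so p-values rest on the spread among these mice alone and take no account of either.

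Cyp3a enzymes are haem proteins of the endoplasmic reticulum that oxidise steroids, bile acids and many drugs, and the liver holds most of them. In the mouse, Cyp3a41 and Cyp3a44 are textbook female-predominant liver genes. Their sex bias follows the pituitary pattern of growth hormone, which is pulsatile in males and more even in females and acts through STAT5b together with the hepatocyte factor HNF4A. Nuclear receptors such as PXR and CAR induce other members of the family when drugs or bile acids accumulate. Kdm5b and Kdm5c encode demethylases of histone H3, and Ahr encodes the aryl hydrocarbon receptor, a ligand-activated transcription factor best known for inducing Cyp1a genes.

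Both genes lie on the minus strand of chromosome 5 of GRCm38, the build named in the submitters' processing notes, and the GENCODE annotation of that build places them in a row of Cyp3a genes. Cyp3a41a spans 145694049 to 145720136 and Cyp3a44 spans 145773983 to 145805874, with 53846 bases between them. Cyp3a41b (145558664 to 145584730) and Cyp3a16 (145436309 to 145469723) lie on the far side of Cyp3a41a. Each of these 4 genes has 13 exons and a coding sequence of 1515 bases.

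The sequences just upstream of the start sites are shown first because the members differ so little there. RefSeq places the 250 bases before the Cyp3a44 start at chr5:145805875-145806124 and those before the Cyp3a41a start at chr5:145720137-145720386, minus strand, GRCm38.p6. They are written from 5′ to 3′, and capitals mark the bases at which the 2 genes differ.
Cyp3a44: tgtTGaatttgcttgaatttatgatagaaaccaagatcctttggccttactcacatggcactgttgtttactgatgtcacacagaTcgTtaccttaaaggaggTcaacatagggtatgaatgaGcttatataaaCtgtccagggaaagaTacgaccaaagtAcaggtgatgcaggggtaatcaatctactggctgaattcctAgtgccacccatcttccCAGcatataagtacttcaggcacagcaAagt
Cyp3a41a: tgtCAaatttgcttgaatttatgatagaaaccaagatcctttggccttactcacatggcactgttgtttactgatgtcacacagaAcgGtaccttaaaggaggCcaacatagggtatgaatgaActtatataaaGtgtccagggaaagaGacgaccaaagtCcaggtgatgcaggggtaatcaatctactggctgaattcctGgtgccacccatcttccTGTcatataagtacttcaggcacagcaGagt

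The windows were identical at 236 of 250 positions (94.4%) and differed at 14, with no gap. The window of Cyp3a41b differed from that of Cyp3a41a at 1 position, and that of Cyp3a16 matched the Cyp3a44 window over 92.9% of aligned columns. The window of Cyp3a59, a family member on the plus strand (146079257 to 146113287), matched it over 49.7% of aligned columns. A set of 8 short motifs, chosen after the sequences had been read, were searched on both strands of the 250 bases and in the same window of 27025 mouse promoters.

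A pair of the 14 differences fell within a motif. The HNF4A-type element CAAAGTCCA starts at position -95 from the start site of Cyp3a41a and is in 0.381% of all promoters. In Cyp3a44 it is broken by C162A, where the Cyp3a41a base stands first and positions are counted from 1 at the 5′ end of the printed sequence. Cyp3a41b and Cyp3a16 hold it too. The nuclear receptor half-site AGTTCA, on the opposite strand at position -130 of Cyp3a41a and in 11.9% of promoters, is broken in Cyp3a44 by A124G and overlaps the TATAAG match at -126. Cyp3a41b holds it and Cyp3a16 does not. The 3 motifs that Cyp3a44 shares with Cyp3a41a at the same positions were the forkhead core TGTTTAC at -186 (3.09% of promoters), the HNF6 core ATTGAT at -71 (6.97%) and the TATA-like TATAAG at -126 and -26 (6.81%). The matches at -71 and -126 lie on the opposite strand. The STAT5-type palindrome TTCNNNGAA (7.18% of promoters), the C/EBP-type TGATGCAA (0.818%) and the AhR core GCGTG (28.2%) had no match in either window. A match is a string of letters and no measured binding site.

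How far reads can tell these copies apart was measured on the annotated transcripts, because FPKM of close copies can borrow from each other. The coding sequences of Cyp3a44 and Cyp3a41a were identical at 95.8% of positions, with 64 differences, and the longest run without a difference was 124 bases. Of all stretches of 100 bases in the Cyp3a44 transcript, 5.37% occurred unchanged in the transcript of another gene and 2.52% in that of Cyp3a41a. For Cyp3a41a the share was 90.8%, of which nearly all lay in Cyp3a41b. The coding sequences of Cyp3a41a and Cyp3a41b differ at 2 positions, G120A and G336T, counted from 1 at the first coding base with the Cyp3a41a base first. Most of Cyp3a44 is thus sequence of its own, whereas the split between Cyp3a41a and Cyp3a41b rests on few bases. With stretches of 50 bases, the shared share rose to 26.5% for Cyp3a44 and 98.6% for Cyp3a41a. Also not given in the sources used here is the read length, or how reads that match several genes were handled.

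The coding window in which the 2 members differ most shows what separates their reads. It covers coding positions 595 to 684 and holds 8 differences, again in capitals. Cyp3a41b reads like Cyp3a41a throughout it.
Cyp3a44: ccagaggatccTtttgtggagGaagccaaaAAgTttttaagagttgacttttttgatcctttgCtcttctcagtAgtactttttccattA
Cyp3a41a: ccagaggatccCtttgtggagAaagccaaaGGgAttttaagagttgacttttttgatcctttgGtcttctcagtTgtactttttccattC

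The depth of each library is unknown, since FPKM carry no read totals. FPKM of the 2372 genes sum to 281871 to 326460 in female libraries and 380206 to 429780 in male libraries, and no 2 libraries held identical values. Kdm5c, 1 of the targeted genes, gave log2 differences for the Kdm5 vectors (mean of the differences without and with the AhR vector) of -0.44 in males (adjusted p = 0.00215, limma) and -0.17 in females (adjusted p = 0.169, limma). Kdm5b and Ahr were not analysed here. None of the 8 hepatocyte markers in the table had a mean under 1 FPKM in any of the 8 groups.

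Both genes were expressed in every female and were at or near 0 in every male. Cyp3a44 lay between 6.37 and 39.2 FPKM in the 12 females, with a median of 15.7 FPKM, and between 0 and 0.17 FPKM in the 12 males, 8 of which were listed at 0. Cyp3a41a lay between 72.7 and 835 FPKM in females, with a median of 460.8 FPKM, and between 0 and 0.98 FPKM in males, 2 of which were listed at 0. No male reached 1 FPKM for either gene, and the ranges of the sexes did not come near each other. By mean FPKM, Cyp3a41a ranked 123 of 2372 genes in control females, 195 with the Kdm5 vectors and 62 with the AhR vector, and Cyp3a44 ranked 975, 1469 and 1050 in that order.

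Tests were made with limma on log2(FPKM + 0.5), a scale that understates the change of genes near 0, with Benjamini-Hochberg adjustment over all 2299 genes and a threshold of 0.05. A ± after a log2 difference is its standard error and a ± after FPKM is the SD of 3 mice. Unless a smaller fit is named, limma pooled the spread of a gene over all 24 libraries, males at the floor included. Within groups the SD of Cyp3a44 on the log2 scale was 0.49 in females and 0.15 in males. For Cyp3a41a it was 0.72 in females and 0.37 in males. With control vectors, the females exceeded the males by 5.79 ± 0.28 for Cyp3a44 (adjusted p = 1.84e-12) and by 9.66 ± 0.42 for Cyp3a41a (adjusted p = 4.15e-13) on this scale. Since no male reached 1 FPKM, both genes passed the filter through female libraries alone. Their tests and ranks against males are thus no support beyond the values themselves. The Cyp3a41a difference was the highest of all 2299 genes and that of Cyp3a44 ranked 11, in a comparison in which 42.5% of genes were called. Of these, 709 were higher and 267 lower in females. Scaling the libraries by the median of ratios moved the median of all genes from 0.15 to 0.00 on the log2 scale and the split to 492 higher and 490 lower. Beside this difference, 8 of 9 Kupffer cell and macrophage markers were called higher in females, with sums of 482 to 525 FPKM against 229 to 331 FPKM, as were 5 of 6 stellate and fibroblast markers and 4 of 7 endothelial markers. Of 8 hepatocyte markers, 1 was called higher and 2 lower. The part of these shifts in the sex difference was not tested.

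The same sex difference passed in the other 3 vector settings. For Cyp3a44 it was 4.04 under the Kdm5 vectors, 5.64 under the AhR vector and 4.18 under both. For Cyp3a41a it was 8.42, 10.25 and 9.01 in that order. The shares of all genes called were 36.3%, 39.2% and 49.2%, and all 6 differences had an adjusted p of at most 5.59e-10 (limma). Because the male values sit at the floor of the scale, the size of these differences depends on the pseudocount. With 0.1 in place of 0.5, the control difference was 7.90 for Cyp3a44 and 11.69 for Cyp3a41a.

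**Figure D1:**
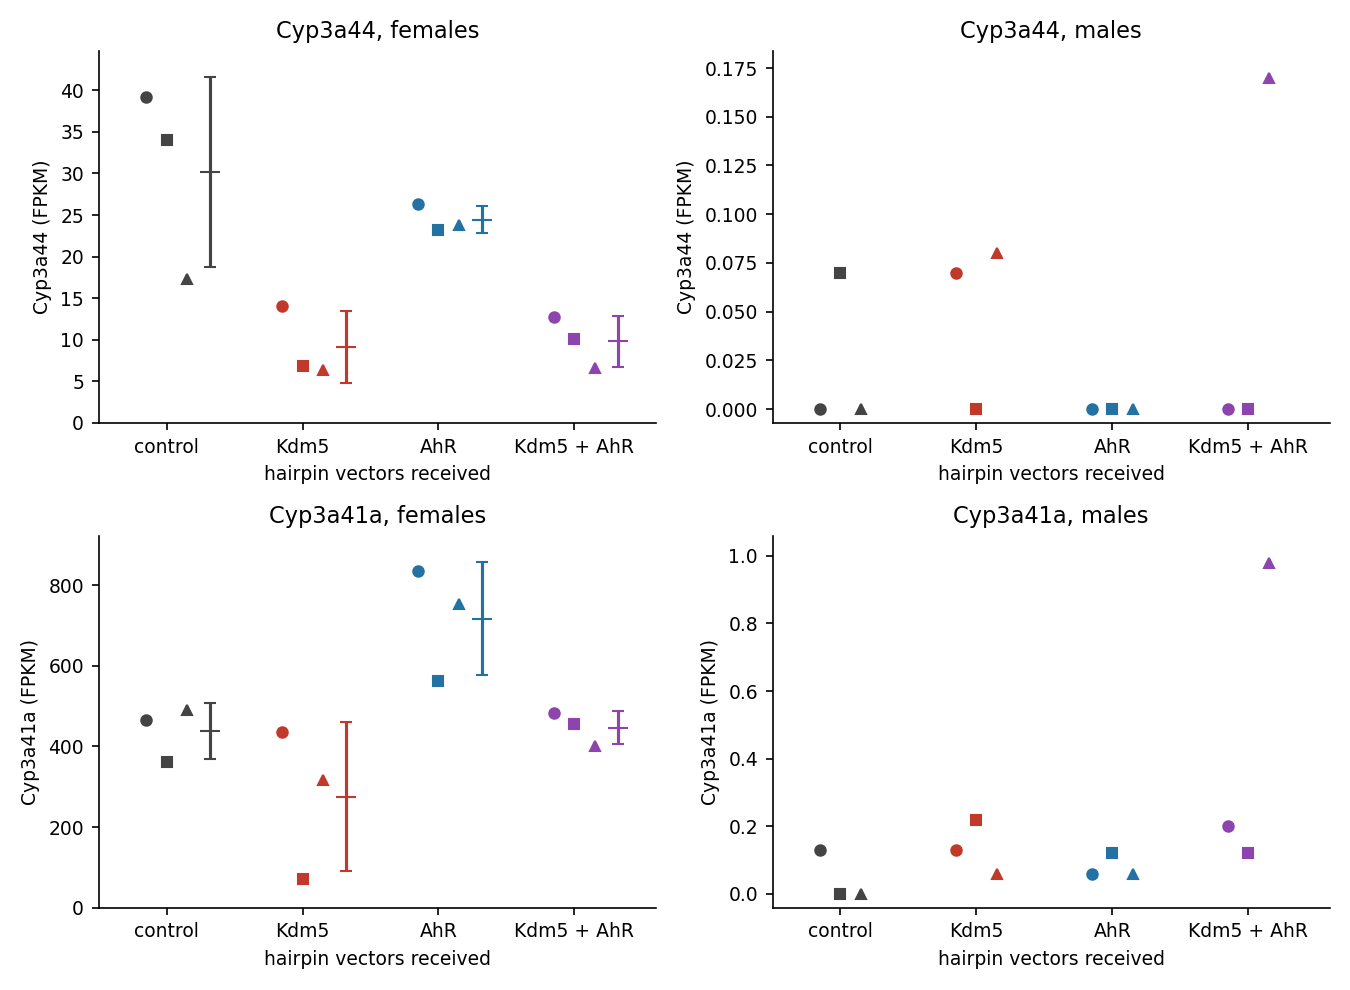
FPKM of Cyp3a44 (top) and Cyp3a41a (bottom) in each of 12 females (left) and 12 males (right), by the hairpin vectors received. Each symbol is 1 mouse (circle, square and triangle for mice 1 to 3 of a group, which are not paired between groups), and bars in females are the mean and SD of 3 mice. The axes of males are expanded: no male is above 0.98 FPKM. Cyp3a44 in the 6 females with Kdm5 vectors stays at or below 14.07 FPKM, under the lowest of the other 6. The share of all genes that separate in this way was not computed.

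Cyp3a44 fell in females that received the Kdm5 vectors. It measured 39.2, 33.98 and 17.28 FPKM in the 3 control females and 14.07, 6.85 and 6.37 FPKM in the 3 females with the Kdm5 vectors. The groups did not overlap, and 1 control female lay close to the highest Kdm5 female. The share of all genes that separate likewise was not computed, here or for the separations of groups given below. The means were 30.2 ± 11.5 and 9.10 ± 4.31 FPKM, a ratio of 3.31, and the log2 difference was -1.68 ± 0.28 (95% confidence interval -2.26 to -1.11, adjusted p = 0.00462, limma). This was the 2nd lowest log2 difference of the 2299 genes, of which 6.87% were called. In a fit of the 12 female libraries alone, where the spread is not lowered by males near 0, it still passed (adjusted p = 0.0330, limma). With the 2 groups alone it did not (adjusted p = 0.0937, limma). In bulk tissue, fewer hepatocytes with the RNA and less RNA per hepatocyte cannot be told apart.

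A lower level under the Kdm5 vectors was also seen on the background of the AhR vector. Females with the AhR vector had 26.3, 23.22 and 23.79 FPKM of Cyp3a44, the tightest of the female groups (24.4 ± 1.64 FPKM). Females with both vectors had 12.69, 10.12 and 6.59 FPKM (9.80 ± 3.06 FPKM), again with no overlap. The log2 difference between these groups was -1.32 ± 0.28 (adjusted p = 0.0314, limma), in a comparison in which 0.696% of genes were called. It did not pass in the fit of females alone (adjusted p = 0.192, limma), or in the fit of all libraries without AhR female 1 or 2 (adjusted p = 0.0736 and 0.0941, limma) or without female 2 or 3 with both vectors (adjusted p = 0.0950 and 0.164, limma). Females with both vectors lay below control females by 1.54 log2 units (log2 difference -1.54 ± 0.28, adjusted p = 0.00344, limma; 11.6% of genes called). That call also ended in the fit of females alone (adjusted p = 0.0519, limma).

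As the mean of the differences without and with the AhR vector, the Kdm5 vectors lowered Cyp3a44 in females by a log2 difference of -1.50 ± 0.20 (95% confidence interval -1.91 to -1.09, adjusted p = 0.00018, limma). No gene of the 2299 had a lower average difference, and 9.35% were called. The call held in the fit of females alone (adjusted p = 0.0181, limma). It held when any 1 of the 12 females was left out of the fit of all libraries, with differences from -1.68 to -1.38. When the second Kdm5 female was left out of the fit of females alone, the adjusted p from limma was 0.0519. An exact permutation test, which relabelled mice within each setting of the AhR vector, gave a two-sided p of 0.005, the smallest that 400 relabellings can give. It was 1 of 8 such tests, whose p-values are not adjusted, and 2 more were added after the values had been seen.

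For the AhR vector, no difference in Cyp3a44 passed in females. Control and AhR females overlapped, as did females with the Kdm5 vectors alone and with both. The log2 difference was -0.22 with a 95% confidence interval of -0.80 to 0.36 for the AhR vector against control (adjusted p = 0.81, limma; 0.217% of genes called). It was 0.14 (-0.43 to 0.72) when the AhR vector was added to the Kdm5 vectors (adjusted p = 0.82, limma; 2.09% called). The average was -0.04 (-0.45 to 0.37; adjusted p = 0.933, limma; 3.39% called), and the exact permutation p was 0.875. The intervals allow changes of Cyp3a44 of up to their bounds. In order of the mean, Cyp3a44 thus stood highest in control females, then in AhR females, then with both vectors and lowest with the Kdm5 vectors. The first pair of neighbours in that order and the last pair did not differ beyond their spread.

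Cyp3a41a had another pattern in the same mice, with a wide spread. Its FPKM were 466.77, 360.46 and 490.68 in control females, and 436.8, 72.68 and 318.08 in females with the Kdm5 vectors. The second Kdm5 female had by far the lowest Cyp3a41a of all 12 females, and the other 2 overlapped the controls or lay just below them. The means were 439 ± 69.3 and 276 ± 186 FPKM, and the log2 difference was -1.01 ± 0.42, which did not pass (95% confidence interval -1.89 to -0.13, adjusted p = 0.148, limma). Without the second Kdm5 female it was -0.22 (adjusted p = 0.707, limma), and without the first it was -1.51 and passed (adjusted p = 0.0453, limma).

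Females with the AhR vector had the highest Cyp3a41a, at 835.28, 562 and 752.53 FPKM (717 ± 140 FPKM). All 3 lay above all other 9 females. Females with both vectors had 482.99, 454.83 and 402.22 FPKM (447 ± 41.0 FPKM), within or near the range of the controls. The ratio of AhR to control means was 1.63, and the log2 difference of 0.70 ± 0.42 did not pass (95% confidence interval -0.18 to 1.58, adjusted p = 0.54, limma). Adding the Kdm5 vectors to the AhR vector gave -0.67 (adjusted p = 0.48, limma) and adding the AhR vector to the Kdm5 vectors gave 1.04 (adjusted p = 0.16, limma). Both vectors against control vectors gave 0.03 (-0.85 to 0.92; adjusted p = 0.97, limma). Cyp3a41a was thus called in none of the 8 female comparisons by limma, although 4 of them had an unadjusted p under 0.05. In those 4, between 21.6% and 26% of all genes had such a p.

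Means over both states of the other vector gave Cyp3a41a log2 differences of opposite sign for the 2 kinds of vector. With the Kdm5 vectors the average was -0.84 ± 0.30 (adjusted p = 0.0807, limma) and with the AhR vector 0.87 ± 0.30 (adjusted p = 0.0986, limma), so that neither passed. Exact permutation tests, unadjusted and 2 of the same 8, gave p = 0.015 and p = 0.01. Without the second Kdm5 female these averages were -0.44 and 0.48, and their exact permutation p-values were 0.04 and 0.015. Without the first Kdm5 female they were -1.09 (adjusted p = 0.0246, limma) and 1.12 (adjusted p = 0.0296, limma). Leaving out control female 1 or 3 took the exact permutation p of the Kdm5 vectors to 0.08 or 0.09. Leaving out the first or the second female with both vectors took that of the AhR vector to 0.075 or 0.065.

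In order of the mean, Cyp3a41a stood highest with the AhR vector, then with both vectors, then with control vectors and lowest with the Kdm5 vectors. No pair of neighbours in that order differed by a test that passed. The effects of the 2 kinds of vector did not depend on each other by a test that passed. The interaction was 0.36 (-0.45 to 1.18; adjusted p = 0.80, limma) for Cyp3a44 and 0.34 (-0.91 to 1.59; adjusted p = 0.88, limma) for Cyp3a41a, with 0.609% of genes called.

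**Figure D2:**
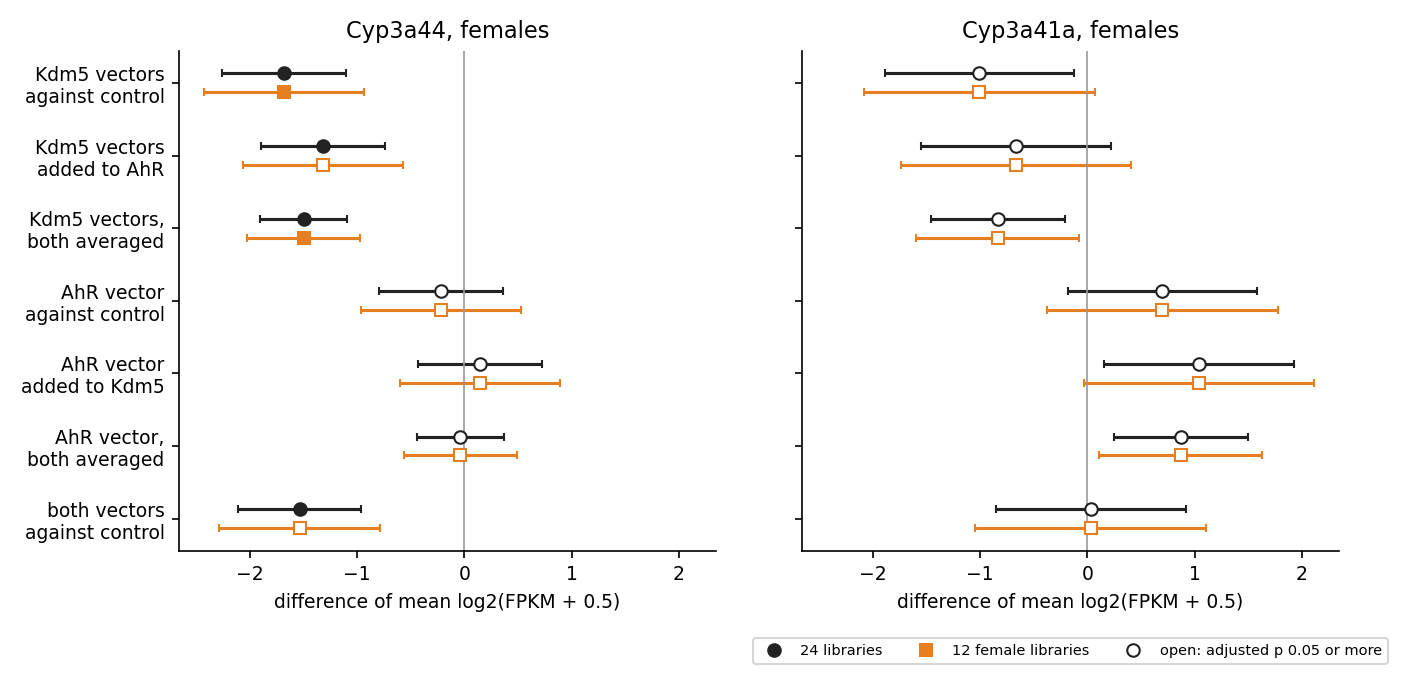
Log2 differences of Cyp3a44 (left) and Cyp3a41a (right) between female groups, with 95% confidence intervals, from a fit of all 24 libraries (black circles) and of the 12 female libraries (orange squares). Filled symbols have an adjusted p under 0.05. For Cyp3a44 the 3 differences of the Kdm5 vectors lie between -1.68 and -1.32, and for Cyp3a41a all symbols are open.

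In males the vectors were tested on values at the floor. Cyp3a44 was listed at 0, 0.07 and 0 FPKM in control males, at 0.07, 0 and 0.08 with the Kdm5 vectors, at 0 in all 3 with the AhR vector, and at 0, 0 and 0.17 with both. Cyp3a41a was listed at 0.13, 0 and 0 FPKM in control males, at 0.13, 0.22 and 0.06 with the Kdm5 vectors, at 0.06, 0.12 and 0.06 with the AhR vector, and at 0.2, 0.12 and 0.98 with both. The third male with both vectors held the highest value of each gene among males, still far under any female. None of 8 male comparisons passed for either gene by limma, and none had an unadjusted p under 0.05.

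The shares of all genes called in males were 1.22% for the Kdm5 vectors, 1.09% for the AhR vector and 2.35% for both against control. They were 3.26% and 0.913% for the Kdm5 and the AhR vectors added to the other, 2.22% and 2.26% for their averages, and 1.61% for the interaction. For Cyp3a41a and the Kdm5 vectors in males the exact permutation p was 0.04 at a log2 difference of 0.40, between values of 0 to 0.98 FPKM that are all under the 1 FPKM asked for by the filter, so no change is read from it. Leaving out any of 8 single males took it to 0.055 or above, and without the third male with both vectors the difference was 0.21. The other 3 male tests of the 8 gave exact permutation p-values from 0.22 to 1.

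Whether the vectors act on Cyp3a44 differently in the sexes could not be measured, since male Cyp3a44 was already at or near 0 and could not fall. On the log2 scale the female change minus the male change was -1.75 ± 0.39 for the Kdm5 vectors (adjusted p = 0.0304, limma; 1.74% of genes called) and -1.62 ± 0.39 for both vectors (adjusted p = 0.0189, limma; 5.92% called). These values restate the fall in females and cannot show whether the effect depends on sex. With a pseudocount of 0.1 neither passed (adjusted p = 0.0733 and 0.0557, limma). The first also did not pass without control male 3, Kdm5 male 1 or 3, control female 1, or Kdm5 female 2 or 3, each left out alone (adjusted p from 0.0674 to 0.0863, limma). The second did not pass without male 3 with both vectors, control female 1, or female 3 with both vectors (adjusted p from 0.0513 to 0.0564, limma). The corresponding differences of Cyp3a41a, -1.24 and -0.64, did not pass (adjusted p = 0.30 and 0.49, limma). For the AhR vector the differences were -0.16 and 0.60 for Cyp3a44 and Cyp3a41a, with adjusted p from limma of 0.886 and 0.698 and 0.565% of genes called.

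Set against each other within each female, the 2 genes did not keep a fixed ratio. Mean Cyp3a41a was 14.6 times mean Cyp3a44 in control females, 30.3 times with the Kdm5 vectors, 29.3 times with the AhR vector and 45.6 times with both. Cyp3a44 made up 3.40% to 8.61% of the summed FPKM of both genes in control females and 1.61% to 2.56% in females with both vectors, with no overlap. The shares with the Kdm5 vectors (1.96% to 8.61%) and with the AhR vector (3.05% to 3.97%) overlapped those of the controls. The log2 ratio of Cyp3a44 to Cyp3a41a was -3.94 ± 0.78 (SD) in control females and -5.56 ± 0.35 (SD) with both vectors. In the second Kdm5 female, where Cyp3a41a was lowest, the ratio stood at -3.41, as high as in the highest control.

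A test of this ratio was added after the values had been seen. On the log2 scale with the pseudocount, the average difference under the Kdm5 vectors was -0.66 (exact permutation p = 0.10). Under the AhR vector it was -0.91 (exact permutation p = 0.045), and leaving out any of 10 single females took that p to 0.05 or above. Without the second Kdm5 female, the difference under the Kdm5 vectors was -0.98 (exact permutation p = 0.02). The larger fall of Cyp3a44 than of Cyp3a41a under the Kdm5 vectors is therefore not established with all 12 females.

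**Figure D3:**
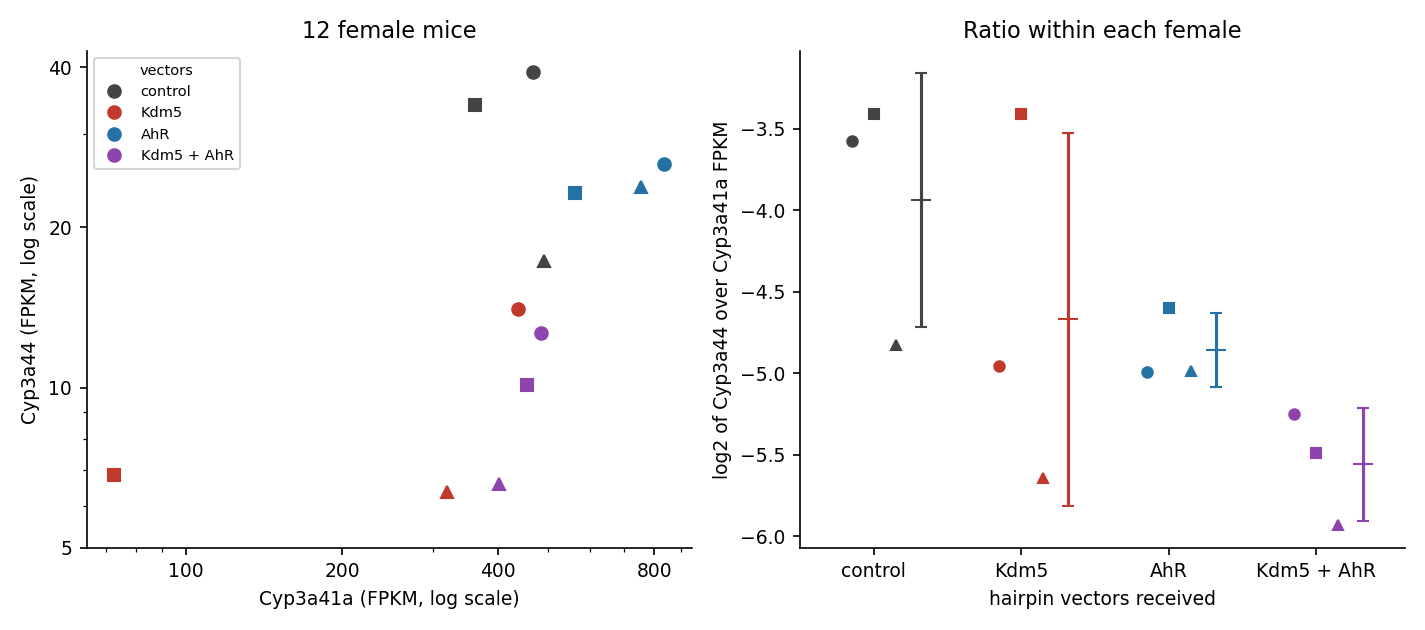
Left, Cyp3a44 against Cyp3a41a in each of 12 females, both axes FPKM on a log scale. Right, the log2 ratio of Cyp3a44 to Cyp3a41a FPKM in the same females by vectors, with mean and SD of 3 mice. Symbols are mice as in the plot of FPKM by group. The Kdm5 female at 72.68 FPKM of Cyp3a41a stands apart on the left and has a ratio of -3.41 on the right.

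Across the 12 females, log2(FPKM + 0.5) of the 2 genes had Pearson's r of 0.55 and Spearman's rho of 0.55, with permutation p of 0.0421 and 0.0667. Adjusted over the 4 relations computed, these were 0.134 and 0.267. Leaving out the 2 mice farthest from the median of Cyp3a41a gave r = 0.41, and after subtracting the group means r was 0.34 (exact permutation p = 0.549). In males r was 0.62 and rho 0.08 (permutation p = 0.0668 and 0.799), and r was -0.12 without the 2 farthest males. The male relation therefore rested on those mice.

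The summed FPKM of Cyp3a44 and Cyp3a41a followed Cyp3a41a. It was 469 ± 65.0 FPKM in control females, 285 ± 189 with the Kdm5 vectors, 741 ± 142 with the AhR vector and 456 ± 44.1 with both. On the log2 scale its average difference in females was -0.86 with the Kdm5 vectors and 0.83 with the AhR vector, given without a test. The sum of Cyp3a41a and its near copy Cyp3a41b was 444 ± 71.0, 283 ± 188, 728 ± 145 and 455 ± 40.3 FPKM in the same order of groups. Cyp3a41b took 0.710% to 4.71% of that sum, so the values of Cyp3a41a hardly change when both copies are added.

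Of the 9 Cyp3a genes listed for the family, 5 were in the table. Cyp3a41b and Cyp3a16, which lie in the same row of genes as Cyp3a41a, were also female genes in these livers. Cyp3a41b lay between 2.65 and 19.07 FPKM in females and was listed at 0 in all 12 males. Cyp3a16 lay between 0.77 and 43.08 FPKM in females and was listed at 0 in 11 males. Cyp3a59 was measured in both sexes, at 38.9 to 67.3 FPKM in females and 14.8 to 34.1 FPKM in males. All 5 genes were called higher in females with control vectors, Cyp3a41b by 3.45 and Cyp3a59 by 1.35 on the log2 scale (adjusted p = 9.69e-06 and 6.54e-05, limma). Apart from Cyp3a59, these genes had passed the filter through female libraries alone.

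Under the Kdm5 vectors, Cyp3a44 was the 1 member of the family that was called in females, where 6.87% of all genes were called. Cyp3a41a gave a log2 difference of -1.01 (adjusted p = 0.148, limma) and Cyp3a16 of -1.14 (adjusted p = 0.34, limma). Cyp3a59 gave -0.45 (adjusted p = 0.21, limma) and Cyp3a41b 0.16 (adjusted p = 0.89, limma). No test compared the changes of Cyp3a16, Cyp3a59 and Cyp3a41b with that of Cyp3a44. Under the AhR vector the average log2 difference was 1.53 for Cyp3a16 (adjusted p = 0.0812, limma) and 0.69 for Cyp3a41b (adjusted p = 0.227, limma). The second Kdm5 female held the lowest value of Cyp3a41a, Cyp3a16 and Cyp3a41b alike, at 72.68, 0.77 and 2.65 FPKM, but not the lowest Cyp3a44.

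**Figure D4:**
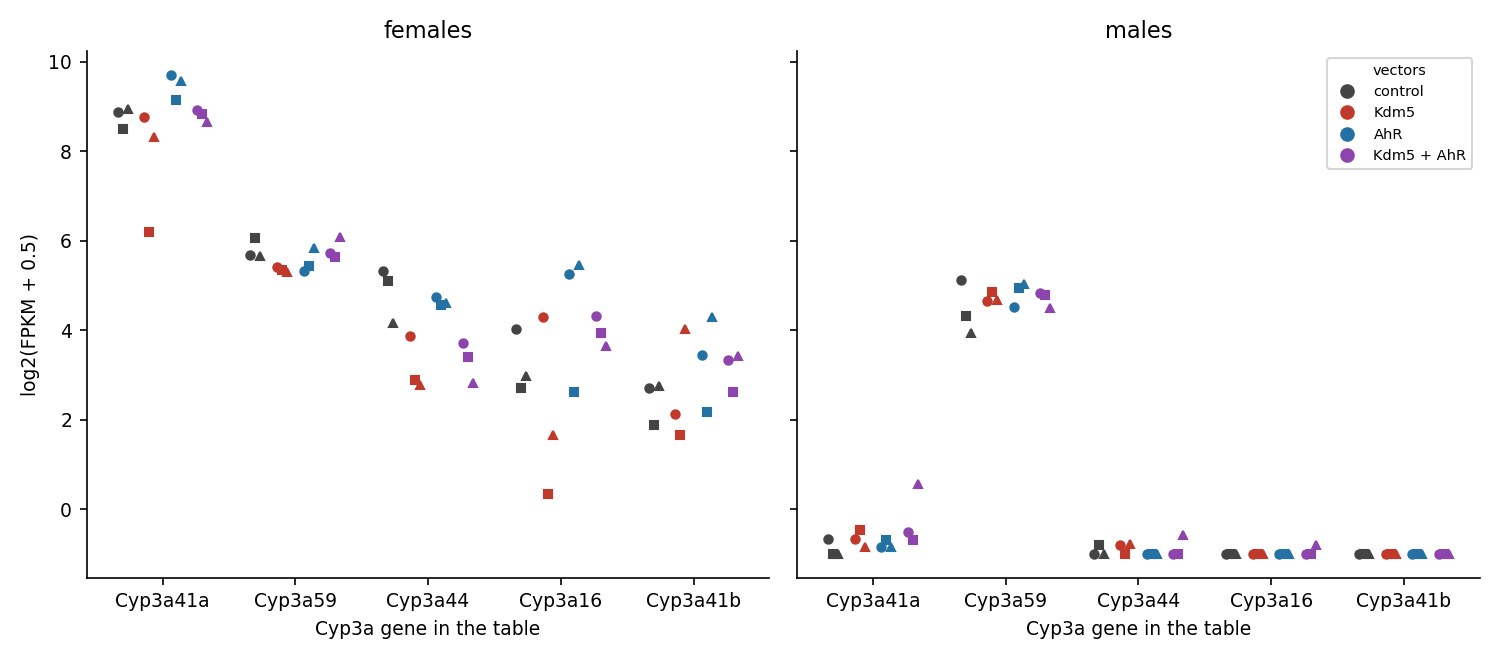
log2(FPKM + 0.5) of the 5 Cyp3a genes of the table in 12 females (left) and 12 males (right), 1 symbol per mouse, coloured by vectors and ordered by group within a gene. In males no value of the 4 genes other than Cyp3a59 exceeds 0.98 FPKM, and a gene listed at 0 lies at -1. In females the square of the Kdm5 group marks the mouse at 72.68 FPKM of Cyp3a41a and 0.77 FPKM of Cyp3a16.

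The genes most like each member over the 12 females were ranked by Pearson's r of log2(FPKM + 0.5) among 2298 genes, as a description across 12 libraries that share their group structure. Most like Cyp3a44 were I830127L07Rik (r = 0.91), 1300017J02Rik (0.86), the C-type lectin gene Clec2d (0.85), F10 (0.85), which encodes a coagulation factor, and Pccb (0.84), a subunit of propionyl-CoA carboxylase. I830127L07Rik had mean levels of 3.63 FPKM in control females, 1.15 with the Kdm5 vectors, 3.02 with the AhR vector and 1.52 with both. Clec2d had 29.0, 17.8, 30.3 and 23.4 FPKM in that order. Neither was absent from males, where Clec2d lay between 17.4 and 33.7 FPKM.

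Most opposite to Cyp3a44 were Paqr7 (-0.91), a membrane progestin receptor gene, the aminoacylase gene Acy3 (-0.90) and the sphingosine kinase gene Sphk2 (-0.90). Sphk2 measured 24.9 FPKM in control females and 35.6 with the Kdm5 vectors, 24.9 with the AhR vector and 39.1 with both. Cyp3a41a ranked 188 among the genes like Cyp3a44.

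The nearest genes to Cyp3a41a were different ones. They were Ski (r = 0.88), a transcriptional co-repressor gene, Gbp3 (0.85), which encodes a guanylate-binding protein, and the family member Cyp3a16 (0.85). The deubiquitinase gene Mindy3 (0.81) and Rcan2 (0.81), a regulator of calcineurin, came next. Cyp3a44 ranked 144 in that order and Cyp3a41b 184. Cyp3a16 had mean levels of 9.71 FPKM with control vectors, 7.53 with the Kdm5 vectors, 28.7 with the AhR vector and 15.4 with both. The most opposite gene was Cyp2d9 (-0.83), a male-biased cytochrome P450 gene, which lay between 39.5 and 154 FPKM in females and between 1118 and 1528 FPKM in males. Prr13 (-0.81) and Exosc5 (-0.80), a subunit of the RNA exosome, followed.

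Cyp3a44 was 1 of 3 female-biased liver genes called lower in females under the Kdm5 vectors, where 3.48% of all genes were called lower. No test set the list against all genes. Of 39 tested genes on a list of female-biased liver genes, 3 fell and none rose in females: Cyp3a44, the cytochrome P450 gene Cyp2c69 (log2 difference -1.54, adjusted p = 0.0375, limma) and the organic anion transporter gene Slc22a26 (-0.81, adjusted p = 0.0478, limma). The median log2 difference of the list was -0.30, against -0.02 over all tested genes, of which 78 rose and 80 fell. On the list, 26 genes lay below 0 and 13 above, and 53.3% of all genes lay below 0. An unadjusted limma p under 0.05, in either direction, was found for 17 of the 39 and for 23.3% of all genes. Of 38 male-biased genes, 2 fell and none rose, Cyp2c70 (-1.59), a bile acid hydroxylase, and the glucuronosyltransferase gene Ugt2b1 (-0.61). Their median was -0.12, 23 of them lay below 0 and 7 had an unadjusted limma p under 0.05. With control vectors, 36 of the 39 female-biased genes, among them Cyp2b13 and Cyp2a4, were called higher in females and 1 lower. Of 38 male-biased genes, 31 were called lower in females and 2 higher. Of all tested genes, 30.8% were called higher and 11.6% lower. Cyp3a44, Cyp3a41a, Cyp3a41b and Cyp3a16 are on the female-biased list. They passed the filter through female libraries alone, so their calls here add no support.

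The 2 further lists hold genes of growth hormone signalling and hepatocyte transcription, and the receptors PXR and CAR with their target genes. Of 19 tested genes of growth hormone signalling and hepatocyte transcription, 3 rose and none fell in females with the Kdm5 vectors, where 3.39% of all genes rose and 3.48% fell. Among them were Cebpa (0.56, adjusted p = 0.00896, limma) and Onecut1 (0.94, adjusted p = 0.0332, limma), which encode the transcription factors C/EBP alpha and HNF6. The list's median was 0.00. Of 23 genes of the PXR and CAR list, 1 fell and none rose, the drug efflux pump gene Abcb1a (-0.93, adjusted p = 0.0137, limma), with a median of -0.20.

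No listed gene of these 4 lists or of the Cyp3a family was called for the AhR vector against control in females by limma, where 5 of 2299 genes passed. At an unadjusted p under 0.05 there were 5 female-biased genes, 2 male-biased genes and 4 of the growth hormone and hepatocyte list. There were 2 of the PXR and CAR list, 0 of the Cyp3a family and 297 of all 2299 genes (12.9%). The median of the female-biased list was 0.15 there and that of all genes -0.01.

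Markers of cell types were read beside the fall of Cyp3a44. The 8 hepatocyte markers summed to 24409 to 26934 FPKM in control females and 27217 to 31731 FPKM in females with the Kdm5 vectors, and none of them was called. The 7 endothelial markers summed to 85.9 to 99.9 and 108 to 110.2 FPKM, with Gpr182 and Lyve1 called higher (0.62 and 0.75, adjusted p = 0.0262 and 0.0336, limma). The 9 Kupffer cell and macrophage markers summed to 482 to 525 and 443 to 493 FPKM, and the 6 stellate and fibroblast markers to 133 to 148 and 151 to 172 FPKM, with none called. The control and Kdm5 groups did not overlap in the hepatocyte, endothelial and stellate sums, all higher with the Kdm5 vectors. The share of all genes without overlap was not computed. For 3 against 3 mice an exact permutation p cannot go below 0.1, so no shift is read from these sums. Abundant genes carry these sums: of the 6 stellate and fibroblast markers, 4 had a log2 difference below 0 and the median was -0.21, and of the 8 hepatocyte markers 5 lay above 0, with a median of 0.04. None of these markers had a mean under 1 FPKM in the control or the Kdm5 females. The part of these shifts in the level of Cyp3a44 was not tested.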

How the data were processed

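RNA of 24 livers was measured by RNA sequencing. The authors deposited 1 FPKM value per gene and mouse, per the file headers, rounded to 2 decimals. The name of the table speaks of raw counts, but no column holds them, and depth is therefore unknown. HISAT, Bowtie2 and GRCm38.p6 are named in the submitters' processing notes, with counting, strand and read length not given in the sources used here. Groups came from the labels alone. Log2(FPKM + 0.5) was fitted with limma 3.58.1 in R 4.3.3 with 1 mean per group over 24 libraries (16 residual degrees of freedom, intensity trend, robust moderation) in 23 comparisons. Adjusted p-values are Benjamini-Hochberg over 2299 genes, and 73 genes with lower FPKM were left out. The scripts were tested on simulated data. Exact permutation tests and sequence comparisons used Python 3.11.15, scipy 1.17.1 and Biopython 1.88. Both members, the gene lists and the rule for named genes were chosen with earlier results of these data known. The rule names both members, every other Cyp3a gene in the table, the 5 most and 3 least like genes over 12 females, up to 4 called members of each list for the Kdm5 vectors in females and for the sexes with control vectors, and Kdm5c; of the lists, those that bear on both genes are given. An adjustment of permutation p-values over a list and a test of the summed FPKM, part of the first plan, were left out. Some called members of these lists are not reported here.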

Additional observations from a re-analysis of the deposited data

Results flagged for a closer look

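On the log2 scale, the change of Cyp3a44 with the Kdm5 vectors in females minus that in males was -1.75, and with both vectors it was -1.62, each past the threshold of the limma test. All 12 males were listed at 0 to 0.17 FPKM, so a fall could not occur there. Both values therefore restate the fall in females and cannot show whether the effect depends on sex.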

How the results depend on the processing

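No paired analysis was possible because the replicate numbers only follow the order of the samples and pair no mice. Alternatives were a pseudocount of 0.1 or 1, no filter, a filter of 12 libraries, median-of-ratios scaling, library weights, plain moderation, libraries of 1 sex, the compared groups alone, and each mouse left out. The permutation tests and sums of the members were also taken on FPKM without log. Over 64 results, 946 of 1034 alternative values were rated as unchanged. For tested results this means the same direction and the same side of the threshold. The summed FPKM had no test, so there it means the same direction and a shift under the pooled SD within groups. That SD was 0.69 in females and 0.40 in males on the log2 scale. For sums without log, direction alone was asked for. The cause of the changes below was not tested.

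With the compared groups alone, the log2 differences of Cyp3a44 no longer passed for the Kdm5 vectors in females (-1.68), for both vectors (-1.54), for the Kdm5 vectors added to the AhR vector (-1.32) and for the sex difference of the Kdm5 vectors (-1.75). With females alone, those for both vectors (-1.54) and for the Kdm5 vectors added to the AhR vector (-1.32) did not pass. With a pseudocount of 0.1, the latter (-1.36) and the sex differences for the Kdm5 vectors (-2.01) and both vectors (-1.80) did not pass, the sex difference for the AhR vector turned to 0.034, the AhR vector added to the Kdm5 vectors in males gave -0.060, and the difference of the sum in males under the Kdm5 vectors moved to 1.07. Library weights gave -0.038 for Cyp3a44 with the AhR vector added to the Kdm5 vectors in males and -0.015 for Cyp3a41a with both vectors in females. Females alone without the second Kdm5 female, chosen after seeing the data, gave Cyp3a44 differences that did not pass of -1.53 (Kdm5 vectors), -1.54 (both), -1.32 (Kdm5 vectors added to the AhR vector) and -1.43 (average of the Kdm5 vectors), turned the AhR vector added to the Kdm5 vectors to -0.0040, and turned the interaction of Cyp3a41a to -0.44.

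Leaving out 1 mouse at a time changed no call of Cyp3a44 for the Kdm5 vectors in females (-2.04 to -1.46), for both vectors (-1.89 to -1.29) or for the average of the Kdm5 vectors (-1.68 to -1.38).
The lowest and highest values without 1 mouse follow for results in which at least 1 such value changed side or sign. For Cyp3a44 in females they were -0.57 to 0.0082 for the AhR vector against control, -1.52 to -1.07 for the Kdm5 vectors added to the AhR vector, -0.057 to 0.49 for the reverse order and -0.21 to 0.14 for the average of the AhR vector. For Cyp3a41a in females they were -1.51 to -0.22 for the Kdm5 vectors, -0.10 to 0.12 for both, 0.26 to 1.55 for the AhR vector added to the Kdm5 vectors (which passed without the first Kdm5 female), -1.09 to -0.44 for the average of the Kdm5 vectors, 0.48 to 1.12 for that of the AhR vector and -0.44 to 0.85 for the interaction. The permutation tests of these averages have the same ranges. In males they were, for Cyp3a44, -0.063 to 0.15 for both vectors, -0.13 to 0.077 for the AhR vector added to the Kdm5 vectors, -0.099 to 0.0069 for its average and -0.071 to 0.14 for the interaction. For Cyp3a41a in males they were -0.044 to 0.58 for the interaction and 0.21 to 0.52 for the average of the Kdm5 vectors. The sex differences of Cyp3a44 ranged from -2.11 to -1.53 for the Kdm5 vectors, -0.51 to 0.071 for the AhR vector and -1.97 to -1.37 for both. The ratio in females ranged from -0.98 to -0.43 for the Kdm5 vectors and -1.14 to -0.59 for the AhR vector, and the male sum under the AhR vector from -0.0099 to 0.34.

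Counts of genes called moved more than the members. For the Kdm5 vectors in females, 158 genes became 23 without control female 1, 279 without control female 2, 56 with females alone, 1 with the compared groups alone and 331 with library weights. For both vectors, 266 became 44 without control female 1, 29 with females alone, 21 with the compared groups alone and 594 with library weights. The average of the Kdm5 vectors gave 97 to 399 over the alternatives that kept every mouse of the compared groups.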
